A study of Mus musculus with 9 samples.

Results

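The features described here are long noncoding RNA (lncRNA) features whose identifier marks them as intergenic, that are mapped to 1 interval, and that lie over 5 kb and up to 100 kb from the span of the nearest named gene. They number 21594 of the 75794 features in the table. Of the other intergenic features, 16926 lie within 5 kb of a named gene and 4390 lie beyond 100 kb. The choice used positions only, not expression. The features just inside the lower limit lay 5001 bases from their gene and those just outside it 5000 bases, and at the upper limit these distances were 99983 and 100019 bases, so the limits cut a continuous range.

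RNA was measured in liver nuclei of adult male CD1 mice, an outbred stock, as polyadenylated RNA from frozen tissue in a library kit that keeps strand. The STAT5ca group comprised 5 libraries from mice injected by tail vein with adeno-associated virus of serotype 8 (AAV8) carrying a constitutively active form of STAT5b, at 2e11 genome copies per mouse. Of these, 2 were taken 4 weeks and 3 were taken 6 weeks after injection. The Control group comprised 4 libraries from mice given vehicle, 2 at each time. Mice were 11 to 12 weeks old at 4 weeks and 13 to 14 weeks old at 6 weeks, and all were killed at 11 AM. Controls received no virus, so the effect of AAV8 itself and that of STAT5ca cannot be told apart. AAV8 is described in the labels as highly specific for hepatocytes, while the nuclei came from whole liver. The labels do not say that each library is a separate mouse, so p-values then measure the spread between these libraries, which may be technical.

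LncRNAs are transcripts without a known protein product, many of them faint, nuclear and restricted to 1 tissue. STAT5b is the transcription factor through which growth hormone acts on hepatocytes: it is phosphorylated, enters the nucleus and binds DNA at TTCNNNGAA sites. In mice the secretion of growth hormone is pulsatile in males and nearly continuous in females, and many liver genes with sex-biased expression follow that pattern. Male-biased genes include the major urinary protein (Mup) family, and female-biased genes include A1bg, Cyp2a4 and the Sult3a sulfotransferases.

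The promoters below are shown because they belong to genes beside the runs of features described further on (A1bg, Sult3a1, Cish, Cyp2a4) or to changed features that carry a RefSeq gene symbol (Gm46545, BC039966, Gm29684, G630018N14Rik). Each spans 250 bases before to 50 bases after the RefSeq start, on the gene's strand, in build GRCm38.p6. TTCNNNGAA matches are in capitals, and since this motif is its own reverse complement a match counts for both strands. The windows are, in the same order, chr15:60921221-60921520 (minus strand), chr10:33857472-33857771 (plus), chr9:107296409-107296708 (plus), chr7:26306942-26307241 (plus), chr16:24082641-24082940 (minus), chr4:153950427-153950726 (minus), chr10:95145776-95146075 (minus) and chr13:31409054-31409353 (minus).
A1bg: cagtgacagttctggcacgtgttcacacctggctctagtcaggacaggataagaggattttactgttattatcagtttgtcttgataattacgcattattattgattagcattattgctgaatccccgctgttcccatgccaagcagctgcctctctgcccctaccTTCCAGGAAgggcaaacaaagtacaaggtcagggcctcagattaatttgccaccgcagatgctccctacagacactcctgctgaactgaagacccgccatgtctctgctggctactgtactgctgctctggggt
Sult3a1: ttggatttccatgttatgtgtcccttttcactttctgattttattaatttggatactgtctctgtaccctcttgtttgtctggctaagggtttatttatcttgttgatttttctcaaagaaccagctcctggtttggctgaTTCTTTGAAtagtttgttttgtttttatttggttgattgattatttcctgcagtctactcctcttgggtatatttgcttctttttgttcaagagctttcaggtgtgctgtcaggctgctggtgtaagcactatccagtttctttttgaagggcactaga
Cish: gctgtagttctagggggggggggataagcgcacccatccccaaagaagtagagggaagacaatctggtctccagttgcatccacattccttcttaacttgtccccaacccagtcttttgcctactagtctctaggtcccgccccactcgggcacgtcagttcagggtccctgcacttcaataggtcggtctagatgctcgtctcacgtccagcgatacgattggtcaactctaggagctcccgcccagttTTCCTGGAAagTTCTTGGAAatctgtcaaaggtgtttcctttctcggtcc
Cyp2a4: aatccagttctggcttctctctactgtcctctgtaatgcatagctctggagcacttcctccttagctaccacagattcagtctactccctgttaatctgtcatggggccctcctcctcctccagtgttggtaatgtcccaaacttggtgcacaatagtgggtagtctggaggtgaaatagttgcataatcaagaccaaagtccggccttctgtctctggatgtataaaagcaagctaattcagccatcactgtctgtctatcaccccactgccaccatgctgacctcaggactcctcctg
Gm46545: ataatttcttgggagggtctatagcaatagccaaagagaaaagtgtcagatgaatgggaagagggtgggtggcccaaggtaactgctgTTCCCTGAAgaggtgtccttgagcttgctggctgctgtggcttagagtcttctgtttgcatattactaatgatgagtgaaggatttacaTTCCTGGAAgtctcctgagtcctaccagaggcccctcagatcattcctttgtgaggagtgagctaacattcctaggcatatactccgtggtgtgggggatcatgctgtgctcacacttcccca
BC039966: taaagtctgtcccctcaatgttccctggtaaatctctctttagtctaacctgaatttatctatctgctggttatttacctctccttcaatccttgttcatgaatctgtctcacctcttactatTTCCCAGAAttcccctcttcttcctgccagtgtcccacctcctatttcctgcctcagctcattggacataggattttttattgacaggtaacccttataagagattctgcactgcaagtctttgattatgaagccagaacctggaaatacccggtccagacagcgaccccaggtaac
Gm29684: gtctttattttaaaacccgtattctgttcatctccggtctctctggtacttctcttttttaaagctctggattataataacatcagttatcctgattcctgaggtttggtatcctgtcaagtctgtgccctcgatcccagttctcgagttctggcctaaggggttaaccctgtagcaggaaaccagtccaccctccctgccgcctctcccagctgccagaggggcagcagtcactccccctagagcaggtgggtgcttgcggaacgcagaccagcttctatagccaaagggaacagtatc
G630018N14Rik: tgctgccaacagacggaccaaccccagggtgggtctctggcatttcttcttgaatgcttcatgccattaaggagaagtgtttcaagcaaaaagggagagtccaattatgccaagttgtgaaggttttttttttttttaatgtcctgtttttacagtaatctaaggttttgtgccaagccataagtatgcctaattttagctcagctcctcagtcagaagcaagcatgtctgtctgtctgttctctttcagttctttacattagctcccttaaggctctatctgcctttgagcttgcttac

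The motif began 84 bases before the start of A1bg and 109 bases before that of Sult3a1. Cish and Gm46545 each held 2 matches, and Cyp2a4, Gm29684 and G630018N14Rik held none in this window. Over the whole RefSeq table, 2726 of 32851 promoters (8.30%) held the motif. RefSeq symbols matched 1176 of the features described here, and their promoters held it in 90 of 946 cases (9.51%). Of 68 promoters of changed features, 10 held it (14.7%). Of the 20 genes beside a run with a changed feature, only 13 had a promoter matched by symbol, and 4 of these held it (30.8%). Those 4 were A1bg, Sult3a1, Cish and Apcs, and the 13 include the near-identical promoters of Mup9, Mup17 and Mup19. The promoters printed above are picked examples and hold the motif more often than these shares. These shares describe letters in a window, with no test and no statement about binding. The sequences of the features themselves are not shown, because their coordinates are in mm9 and the genome at hand is GRCm38.

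Depth, read from the low values of the table, ranged from 11823873 to 14863490 counted reads in the STAT5ca libraries and from 9489045 to 13144589 in the Control libraries. The table gives 1 RPKM value per feature and group, so values of single libraries are given only for faint features whose reads could be recovered as whole numbers. A group RPKM is the authors' value for the group and carries no SD. Markers of 8 liver and blood cell types were present in both groups. The summed level of the 5 hepatocyte markers was 18378 RPKM in STAT5ca and 8986 RPKM in Control, and that of the 4 Kupffer cell markers was 168 RPKM in STAT5ca and 96.9 RPKM in Control. The 4 sinusoidal endothelial markers summed to 167 RPKM in STAT5ca and 235 RPKM in Control, and the 4 stellate cell markers to 73.0 RPKM in STAT5ca and 114 RPKM in Control. B cell markers summed to 30.4 RPKM in STAT5ca and 14.9 RPKM in Control. The sums in STAT5ca against Control were 9.97 against 6.01 RPKM for T and NK cells, 7.50 against 4.63 RPKM for neutrophils and 3.31 against 4.12 RPKM for cholangiocytes. Few single markers passed the threshold, so the sums do not show that each set moved as a whole. Higher were 1 of 5 hepatocyte, 1 of 4 Kupffer, 2 of 4 B cell, 1 of 4 T and NK cell and 2 of 4 neutrophil markers. Lower were 1 of 4 endothelial, 2 of 4 stellate and 1 of 4 cholangiocyte markers. The lowest hepatocyte value was 85.3 RPKM in STAT5ca and 83.7 RPKM in Control. None of these markers was at 0, and the part of such cells in the results below was not tested. In bulk RNA, fewer cells of a type and less RNA per cell cannot be told apart.

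The description as features of 1 exon held for positions in the table but not for all transcripts. Each of the 42910 intergenic identifiers had 1 interval. The reads recovered from low values allowed the counted length to be checked in 10528 of the features described here, and in 9675 (91.9%) it equalled the whole interval. It did so in 98.2% of 7471 checked intervals of up to 2 kb, against 29.4% of 401 checked intervals over 10 kb, so most of the checked long intervals were not counted as 1 block. A gene symbol was given for 2066 features. Of the 1914 that are also in GENCODE M21, 1837 (96.0%) have a spliced transcript there, so the set is called single-interval rather than single-exon. It holds 4804 features that overlap another single-interval intergenic feature, and these can share reads.

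Most of the features were silent or faint. Both groups were at 0 in 10040 of them (46.5%), and 3681 (17.0%) had a mean RPKM of at least 0.1 over both groups. With the threshold of 0.05 on edgeR's adjusted p, taken from the authors' deposited table, 317 of 21594 (1.47%) were higher in STAT5ca and 226 (1.05%) were lower, against 2.34% higher and 1.49% lower among all 75794 features. Among named genes the same shares were 3.87% and 1.92%. The share called among the middle-distance features therefore lay below that of the table as a whole in both directions. Changes of at least 2-fold past this threshold numbered 310 higher and 207 lower, beside 1.99% and 0.988% of all features, and at an adjusted p under 0.01 there were 242 higher and 129 lower, beside 1.71% and 0.835%. The median log2 fold was 0 in these features and in all features. At a mean of at least 0.1 RPKM it was -0.0146 in all features and -0.0694 in these features. Their summed level was 4219 RPKM in STAT5ca and 4072 RPKM in Control.

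Calls came mostly from features of intermediate level. Of 3291 features with a mean RPKM between 0.1 and 1, 216 rose and 146 fell. Of 17913 fainter ones, 49 rose and 24 fell. At 1 to 5 RPKM 47 rose and 43 fell of 321, and at 5 RPKM or more 5 rose and 13 fell of 69. Of the 317 that rose, 76 were at 0 in Control, and of the 226 that fell, 14 were at 0 in STAT5ca. Control had 4 libraries and STAT5ca 5, so a faint feature reaches 0 more easily in Control, and the part of this was not tested. Where both groups were above 0, the median RPKM ratio was 6.58 in the 241 that rose (quartiles 3.58 and 17.0) and 3.45 in the 212 that fell (quartiles 2.32 and 5.95).

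**Figure D1:**
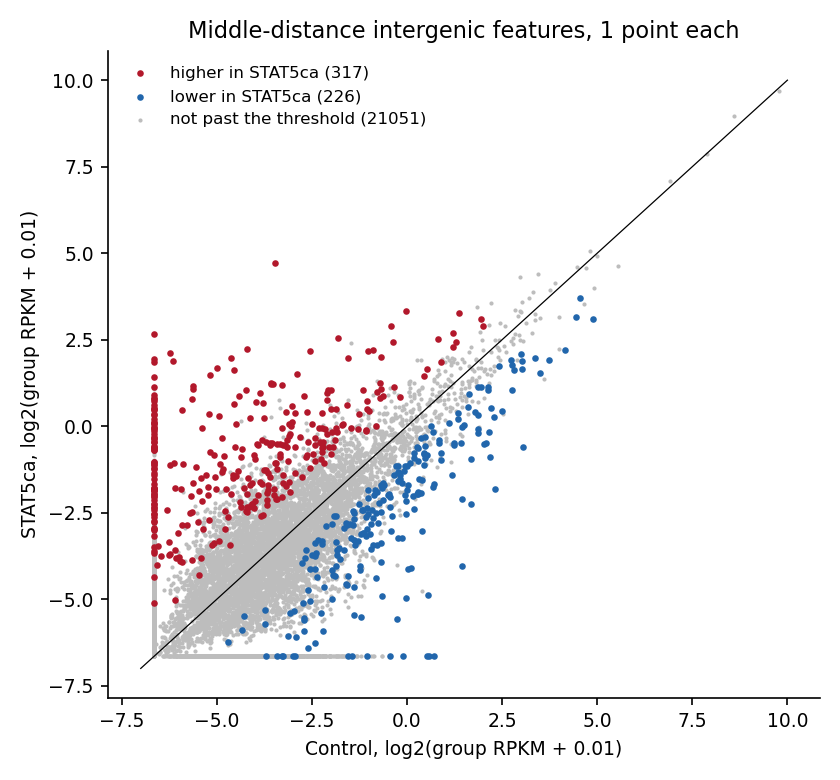
Level of each of the 21594 features in STAT5ca (vertical axis) and Control (horizontal axis), as log2 of the group RPKM plus 0.01, with the line of equality. Red points were higher in STAT5ca (317), blue points lower (226); the column of red points at the left edge holds the 76 features at 0 in Control.

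Among the 5 features of highest level none passed the threshold. Malat1, a nuclear lncRNA found in most cell types, had 235 RPKM in STAT5ca and 237 RPKM in Control. Neat1, the scaffold of nuclear paraspeckles, had 137 RPKM in STAT5ca and 121 RPKM in Control. The unnamed nc_inter_c3_35283 had 831 RPKM in STAT5ca and 876 RPKM in Control, and nc_inter_c16_28991 had 502 RPKM in STAT5ca and 389 RPKM in Control. The last of the 5, nc_inter_c19_32045, had 24.9 RPKM in STAT5ca and 47.0 RPKM in Control. For all 5, edgeR's adjusted p in the authors' deposited table was 1.0.

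The direction of change differed along the distance range. At 5 to 10 kb from a named gene 0.922% of 5534 features rose and 1.36% fell. At 10 to 25 kb these shares were 1.44% and 1.02% of 7452, at 25 to 50 kb 1.79% and 0.994% of 4928, and at 50 to 100 kb 1.93% and 0.707% of 3680. The share that rose was thus higher at each step outward, and the share that fell lower. Features that rose lay a median of 25.1 kb from their nearest gene and those that fell 15.4 kb, against 19.0 kb over all features of the set. Outside the limits, 0.886% rose and 1.04% fell within 5 kb, and 2.67% rose and 0.661% fell beyond 100 kb. These are counts of features that share loci and libraries, and the difference between distances was not tested.

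Calls were denser beside genes that had changed, and took the gene's direction. Of 1323 features whose nearest gene rose, 74 rose (5.59%) and 1 fell. Of 623 whose nearest gene fell, 30 fell (4.82%) and 1 rose. Of 19648 whose nearest gene did not pass the threshold, 242 rose (1.23%) and 195 fell (0.992%). Beside genes that rose at least 4-fold, 41 of 362 features rose (11.3%) and 0 fell, and beside genes that fell at least 4-fold, 11 of 69 fell (15.9%) and 0 rose. Those 11 all lay beside Mup genes on chromosome 4. Beside genes that rose at least 4-fold, 5 of 100 features rose at 5 to 10 kb (5.0%), 29 of 133 at 10 to 25 kb (21.8%), 4 of 81 at 25 to 50 kb (4.94%) and 3 of 48 at 50 to 100 kb (6.25%). Features of 1 locus are counted separately in these shares. The 362 features lay beside 115 genes and the 133 beside 53 genes, and 10 of the 41 that rose lay beside A1bg alone. Within 5 kb of a gene, 5.90% of 1034 features beside risen genes rose and 6.14% of 505 beside fallen genes fell. Beyond 100 kb, 37 of 142 beside risen genes rose (26.1%) and 1 of 35 beside fallen genes fell (2.86%). Differences between these distances were not tested.

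Of the 543 changed features, 106 had a nearest gene that also passed the threshold, and 104 of these (98.1%) moved with it. The other 2 moved against it. The feature nc_inter_c13_11294, 54.9 kb from Atxn1, had 0.216 RPKM in STAT5ca and 0.0137 RPKM in Control, while Atxn1 had 4.29 RPKM in STAT5ca and 7.48 RPKM in Control. The feature nc_inter_c2_1077, 46.2 kb from Pter, had 0.00289 RPKM in STAT5ca and 0.176 RPKM in Control, while Pter had 11.5 RPKM in STAT5ca and 4.40 RPKM in Control. For the remaining 437 (80.5%) the nearest gene did not pass the threshold. A gene that changed in the same direction lay within 100 kb of 100 of the 317 risen features (31.5%), against 13.7% of the features that did not pass the threshold. For the 226 fallen features this held for 49 (21.7%), against 6.86%.

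**Figure D2:**
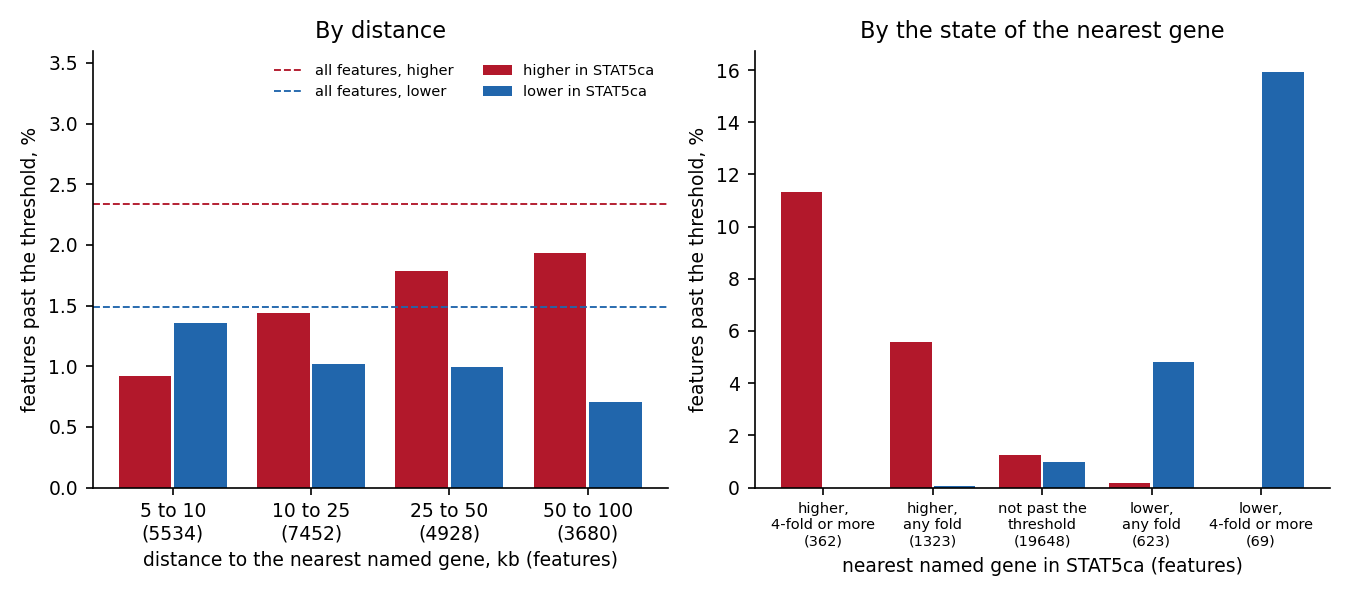
Percent of features past the threshold, by distance to the nearest named gene (left) and by what that gene did in STAT5ca (right), with the number of features in brackets. Red bars are features higher in STAT5ca and blue bars features lower in it; dashed lines give the share over all 75794 features, 2.34% higher and 1.49% lower.

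A run was defined as at least 3 of these features with the same nearest gene, the gene having changed at least 4-fold. There were 61 such runs with 329 features. Among all 75794 features, 2.34% rose and 1.49% fell. The 50 runs beside risen genes held 274 features, of which 35 rose (12.8%) and 0 fell, in 15 of the runs. Of the 35, 10 lay beside A1bg. The 11 runs beside fallen genes held 55 features, of which 11 fell and 0 rose, in 5 of the runs. Most features of a run therefore did not pass the threshold: 94 of the 274 and 13 of the 55 were at 0 in both groups. Whatever the call, the authors' deposited table gave a positive fold for 148 and a negative one for 32 of the features beside risen genes. Beside fallen genes it gave a positive fold for 7 and a negative one for 35. The same split over the whole set is not given here, and faint features reach 0 more easily in Control, so these signs are a description.

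The run beside A1bg held the most changed features. A1bg encodes alpha-1-B glycoprotein, a plasma protein, and had 591 RPKM in STAT5ca and 1.16 RPKM in Control. The run held 19 features over 177 kb of chromosome 15, and 10 of them rose. In Control, 18 of the 19 were at 0 and the other had 0.00340 RPKM, whereas in STAT5ca 18 of the 19 were above 0. The changed features fell into a block of 7 at lower coordinates than the gene, 8.88 to 24.1 kb from it, and 3 at higher coordinates, 11.6, 47.6 and 71.4 kb from it. In the block, nc_inter_c15_12590 (chr15:60734200-60737890, mm9) had 1.72 RPKM in STAT5ca and 0 in Control, at least 95.1-fold higher against a floor of 3 reads over the Control group. The same floor gave at least 46.1-fold for nc_inter_c15_12586 (1.04 RPKM in STAT5ca), at least 32.2-fold for nc_inter_c15_12587 (1.74 RPKM) and at least 31.9-fold for nc_inter_c15_12588 (1.44 RPKM). The farthest feature, nc_inter_c15_12595, had 4.29 RPKM in STAT5ca, a ratio of 1260, over an interval of 61802 bases that was counted over another length. For nc_inter_c15_12590 and nc_inter_c15_12595, edgeR's adjusted p in the authors' deposited table was 5.7e-36 and 2.2e-145.

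In this block the reads of 1 faint feature could be recovered library by library. The feature nc_inter_c15_26837, 302 bases long, had 8, 5, 4, 9 and 6 reads in the 5 STAT5ca libraries, ordered by depth, and 0 in each of the 4 Control libraries. Every STAT5ca library was thus above every Control library. Farther out, nc_inter_c15_26844 had 16, 2, 0, 6 and 5 reads in the STAT5ca libraries and 0 in all Control libraries, so that 1 STAT5ca library overlapped with Control. Its STAT5ca mean was 0.245 reads per 1e6 counted without the deepest library, against 0.412 with all. The feature nc_inter_c15_26838, 11.6 kb from A1bg at higher coordinates, had 13, 2, 1, 4 and 4 reads in the STAT5ca libraries and 0 in all Control libraries. Its STAT5ca mean was 0.207 without the deepest library, against 0.340 with all.

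The genes Sult3a2 and Sult3a1, sulfotransferases with female-biased expression in mouse liver, were each beside a run on chromosome 10. Sult3a1 had 88.6 RPKM in STAT5ca and 0.171 RPKM in Control, and Sult3a2 had 17.1 RPKM in STAT5ca and 0.0265 RPKM in Control. Of the 8 features next to Sult3a1, 2 rose, and 7 of the 8 were at 0 in Control. The one of highest level, nc_inter_c10_18326, had 2.76 RPKM in STAT5ca and 0.0176 RPKM in Control. Its Control value rested on 1 read, so the ratio of 156 has a 95% counting interval of 28.1 to 6177. Of the 4 features next to Sult3a2, 2 rose, among them nc_inter_c10_18317 with 0.449 RPKM in STAT5ca and 0.00333 RPKM in Control. Between Sult3a1 and Rsph4a, a radial spoke protein of cilia, nc_inter_c10_18327 had 6.35 RPKM in STAT5ca and 0 in Control, at least 126-fold higher. Rsph4a itself had 3.22 RPKM in STAT5ca and 0.00564 RPKM in Control.

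Next to Cyp2a4, a steroid hydroxylase with 346 RPKM in STAT5ca and 0.716 RPKM in Control, 3 of 5 features rose. The shortest, nc_inter_c7_6004, had 3.80 RPKM in STAT5ca and 0 in Control, at least 12.7-fold higher. It lies inside nc_inter_c7_44067, which also rose, so these can share reads. The reads of nc_inter_c7_44068 were 6, 4, 6, 5 and 2 in the STAT5ca libraries and 0 in every Control library, without overlap. The predicted gene Gm12729 had 0.470 RPKM in STAT5ca and 0 in Control. It passed the threshold narrowly, with an adjusted p from edgeR of 0.0478 in the authors' deposited table. Beside it, 4 of 7 features rose. The one of highest level, nc_inter_c4_38464, had 3.20 RPKM in STAT5ca and 0.0214 RPKM in Control, which is above the level of the gene. H2ap on the X chromosome had 0.514 RPKM in STAT5ca and 0.0372 RPKM in Control. It also passed narrowly, with an adjusted p from edgeR of 0.0392 in the authors' deposited table. Beside it, 3 of 12 features rose, all with a level under 0.4 RPKM in STAT5ca.

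Socs2 and Cish encode feedback inhibitors of cytokine receptor signalling and are textbook targets of STAT5. Socs2 had 98.5 RPKM in STAT5ca and 6.49 RPKM in Control, and 2 of the 7 features beside it rose. The feature nc_inter_c10_9184, 12.3 kb from Socs2, had 3.59 RPKM in STAT5ca and 0 in Control, at least 111-fold higher. The feature nc_inter_c10_9178, 18.9 kb from Socs2 on its other side, had 0.849 RPKM in STAT5ca and 0.225 RPKM in Control. Cish had 25.9 RPKM in STAT5ca and 1.44 RPKM in Control, and of the 3 features beside it 1 rose, nc_inter_c9_49138, with 0.896 RPKM in STAT5ca and 0 in Control. Apcs, which encodes serum amyloid P component, had 214 RPKM in STAT5ca and 44.9 RPKM in Control. Only 2 of the 21 features beside it passed the threshold, both higher, and 7 were at 0 in both groups.

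All fallen features in runs beside fallen genes lay in the Mup cluster on chromosome 4, most of them beside Mup9 and Mup1. Mup9 had 165 RPKM in STAT5ca and 867 RPKM in Control, and Mup1 had 115 RPKM in STAT5ca and 480 RPKM in Control. Mup genes are near-identical copies, so reads of the genes and of their flanks may be split or shared among copies, and these values are uncertain. Of 5 features beside Mup9, 4 fell, and of 8 beside Mup1, 4 fell. All 13 had a lower RPKM in STAT5ca than in Control. Beside Mup9, nc_inter_c4_3284 had 0.0480 RPKM in STAT5ca and 1.07 RPKM in Control, and nc_inter_c4_3286 had 1.18 RPKM in STAT5ca and 4.86 RPKM in Control. The feature nearest to Mup9 in the block, nc_inter_c4_37980 at 6.71 kb, had an RPKM ratio of Control over STAT5ca of 26.6, with a 95% counting interval of 9.10 to 129, since its STAT5ca value rested on 3 reads. This ratio was 22.4 in nc_inter_c4_3284, 6.22 in nc_inter_c4_3285 and 4.11 in nc_inter_c4_3286, which lay 16.7 kb away. Beside Mup1, nc_inter_c4_37985 had 0.885 RPKM in STAT5ca and 4.41 RPKM in Control, with an adjusted p from edgeR in the authors' deposited table of 1.7e-06.

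The libraries showed how even the decrease was. The feature nc_inter_c4_3287 near Mup1 had 0, 7, 4, 8 and 2 reads in the STAT5ca libraries and 11, 13, 7 and 11 reads in the Control libraries, without overlap once divided by depth. The feature nc_inter_c4_37980 near Mup9 had 0, 2, 0, 1 and 0 reads in STAT5ca and 1, 23, 15 and 10 reads in Control, and 1 Control library lay within the STAT5ca range. Farther along the cluster, nc_inter_c4_38016, 37.0 kb from Mup20, had 0.527 RPKM in STAT5ca and 4.50 RPKM in Control.

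**Figure D3:**
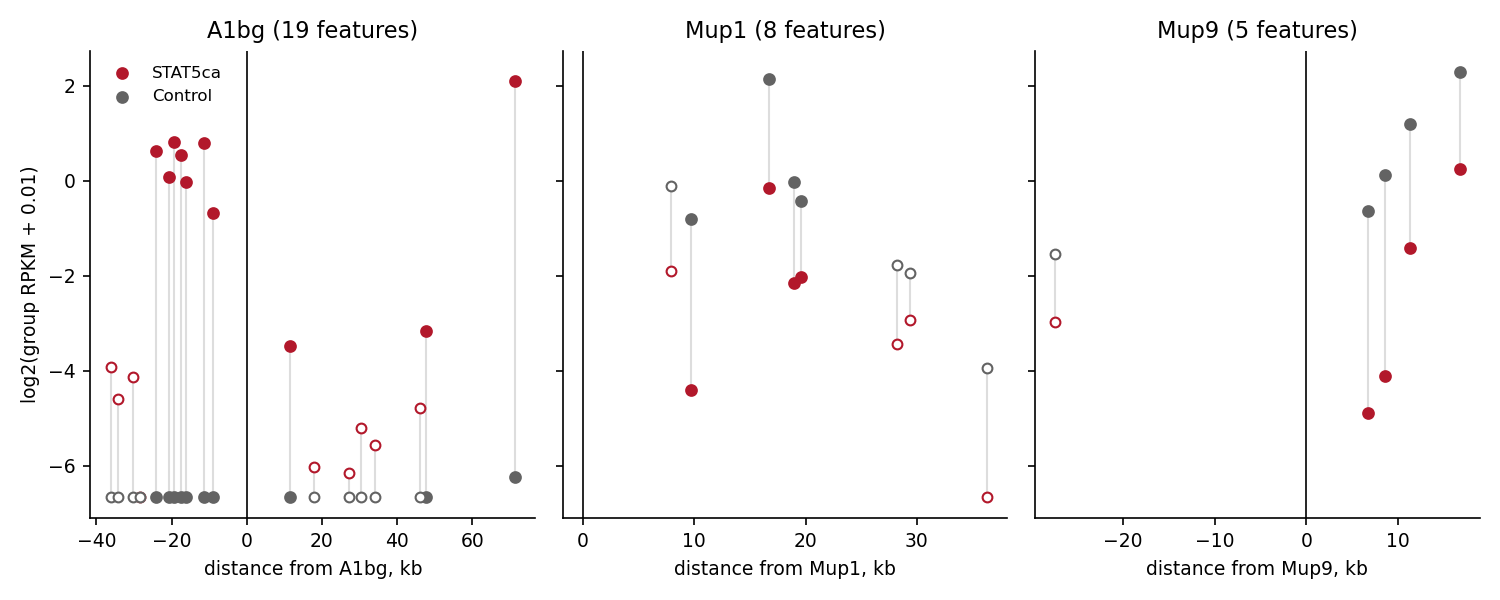
Level of each feature in the runs beside A1bg, Mup1 and Mup9, as log2 of the group RPKM plus 0.01, against its distance from the gene in kb, negative at lower coordinates. Red is STAT5ca and grey is Control, filled where the feature passed the threshold; beside A1bg 18 of 19 features sit at the Control floor, and beside both Mup genes all features sit lower in STAT5ca.

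Genes of 4 lists known from liver biology were looked up for neighbouring features whatever their own change. The lists were chosen with earlier results of these data known, so the shares are a description and not independent support. For comparison, 1.47% of the whole set rose and 1.05% fell, and 2.34% and 1.49% of all features in the table. Of 36 female-biased genes, 29 rose, and 20 were the nearest gene of 86 features, of which 21 rose (24.4%) and 0 fell, with a median log2 fold of 1.64 against 0 over all features. These 21 came from 8 genes, and 10 of them lay beside A1bg. Of 29 male-biased genes in the table, 16 fell and 1 rose, and beside 22 of them lay 95 features, of which 6 fell (6.32%) and 1 rose, with a median of 0. The 6 all lay beside Mup genes. The 1 that rose, nc_inter_c5_4329 near Ugt2b1, had 0.719 RPKM in STAT5ca and 0.207 RPKM in Control. The list of genes known to respond to growth hormone or STAT5 had 49 neighbouring features, of which 3 rose and 1 fell. That 1, nc_inter_c17_13817 at 24.8 kb from the kinase gene Pim1, had 0.0458 RPKM in STAT5ca and 0.413 RPKM in Control, and Pim1 had 17.1 RPKM in STAT5ca and 36.8 RPKM in Control. All 14 interferon response genes rose, but only 5 features of the set lay beside them, and 0 of these passed edgeR's threshold in the authors' deposited table.

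Several of the largest rises had a nearest gene that did not pass the threshold. The feature nc_inter_c5_4115 (chr5:33787360-33802388, mm9) had 3.65 RPKM in STAT5ca and 0.00410 RPKM in Control, the Control value resting on 3 reads, which gives a ratio of 890 with a 95% counting interval of 305 to 4317. Its nearest gene Gm43851 was at 0 in both groups. The feature nc_inter_c8_47620, 7.99 kb from Tomm20, had 1.87 RPKM in STAT5ca and 0 in Control, at least 65.9-fold higher. Tomm20, a receptor of mitochondrial protein import, had 6.78 RPKM in STAT5ca and 5.89 RPKM in Control and did not pass the threshold. The feature nc_inter_c16_28239, 24.8 kb from the kinase gene Tnk2, had 1.23 RPKM in STAT5ca and 0 in Control, at least 34.0-fold higher, while Tnk2 had 18.4 RPKM in STAT5ca and 24.3 RPKM in Control.

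Several of the largest falls rested on the reads of few Control libraries. The adjacent features nc_inter_c7_45136 and nc_inter_c7_45135, near the olfactory receptor gene Olfr596, were at 0 and 0.0512 RPKM in STAT5ca and at 1.43 and 2.72 RPKM in Control. In the Control libraries, nc_inter_c7_45136 had 26, 3, 0 and 0 reads and nc_inter_c7_45135 had 36, 1, 1 and 0 reads. In the STAT5ca libraries the first had 0 reads in all and the second 0, 1, 0, 0 and 0. The deepest Control library thus held nearly all reads of both. Without it, the mean of nc_inter_c7_45136 was 0 reads per 1e6 counted in STAT5ca and 0.0823 in Control, against 0.556 in Control with all libraries. That of nc_inter_c7_45135 was 0.0137 in STAT5ca and 0.0584 in Control, against 0.728 in Control with all libraries. The feature nc_inter_c16_28919 near Dop1b had 0, 0, 1, 0 and 0 reads in STAT5ca and 8, 1, 1 and 25 in Control. Without the shallowest Control library its mean was 0.0140 reads per 1e6 counted in STAT5ca and 0.261 in Control, against 0.855 in Control with all libraries. The feature nc_inter_c13_23876 (Gm32243) had 0 in all STAT5ca libraries and 0, 5, 3 and 12 reads in the Control libraries, which overlap with STAT5ca at 0, and its Control mean was 0.230 reads per 1e6 without the shallowest library, against 0.489 with all. The adjusted p from edgeR in the authors' deposited table was 0.0109 for nc_inter_c7_45136, 0.016 for nc_inter_c7_45135, 0.00167 for nc_inter_c16_28919 and 0.00347 for nc_inter_c13_23876.

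Among the other large falls, the feature nc_inter_c6_43028, 5.24 kb from Setmar, had 0.653 RPKM in STAT5ca and 8.31 RPKM in Control, while Setmar did not pass the threshold. The feature nc_inter_c8_46998, 8.94 kb from Herpud1, had 0.202 RPKM in STAT5ca and 3.20 RPKM in Control. Herpud1, a component of degradation at the endoplasmic reticulum, had 55.4 RPKM in STAT5ca and 142 RPKM in Control.

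Reads per library were recovered for 2433 features with 10 to 40 reads in all. In 94 of them (3.86%) every STAT5ca library was above every Control library after division by depth, and in 59 (2.42%) every one was below. These shares were 2.85% and 2.5% among the 5432 intergenic features with 10 to 40 reads at any distance, which include the 2433. Among the 50 of these features called higher, 44 had groups that did not overlap. Among the 39 called lower, 19 did. More than 0.5 of all reads lay in 1 library in 3 of the 50 called higher and in 13 of the 39 called lower. Counting error alone is large at this depth, and library identity within a group is not known, so the weeks after injection could not be compared.

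**Figure D4:**
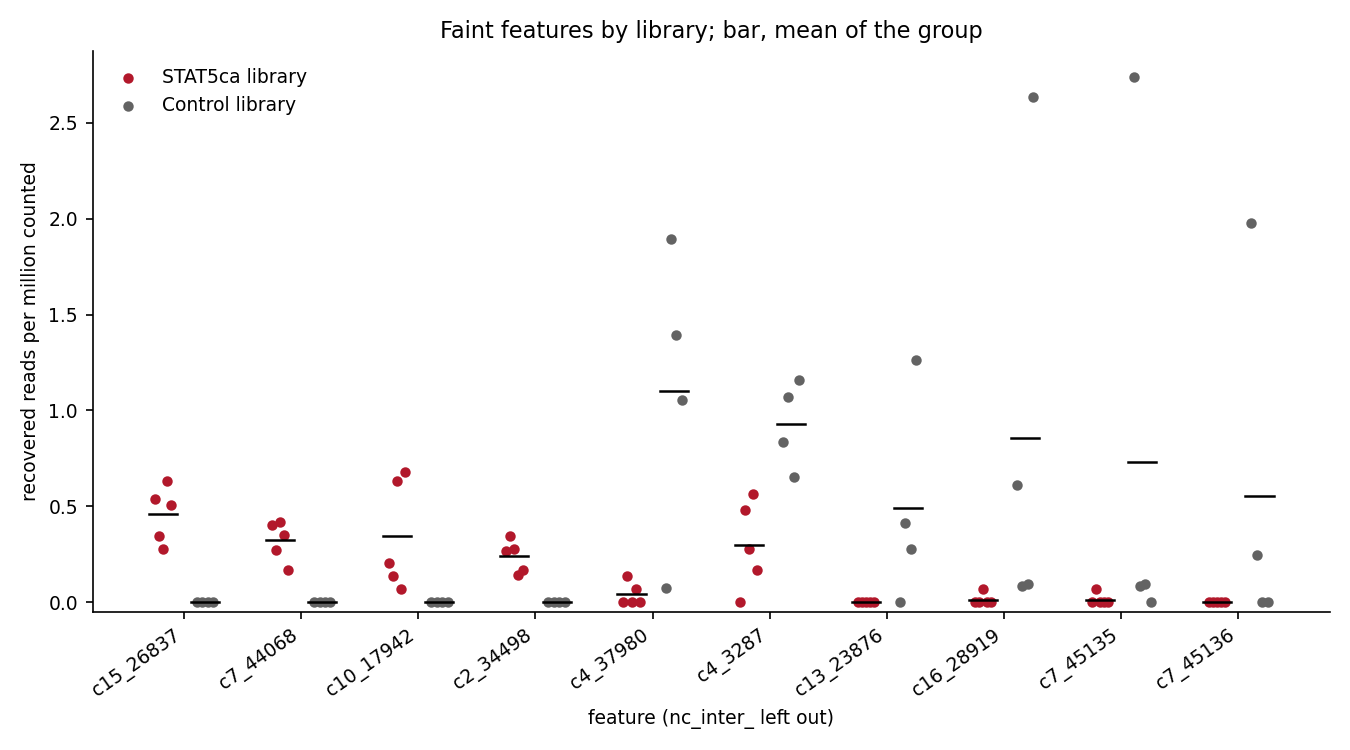
Recovered reads per 1e6 counted reads in each STAT5ca library (red, left) and Control library (grey, right) for 10 faint features that passed the threshold, with the group mean as a bar. The first 4 were higher and the other 6 lower in STAT5ca; in the features c7_45135 and c7_45136 near Olfr596, 1 Control library lies far above the rest.

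Changed features were also grouped by position alone, whatever their nearest gene: at least 3 features in a row that all passed the threshold in 1 direction, with steps of at most 50 kb. There were 18 such runs with 68 features, 14 of them higher and 4 lower in STAT5ca. In 10 of them, with 36 features, no nearest gene passed the threshold. This grouping was chosen after the values were seen and is a description.

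On chromosome 10, 35.1 to 65.0 kb from Gm26674, 9 features in 2 neighbouring runs rose (chr10:8641748-8646853 and chr10:8657178-8673061, mm9). Their levels were 0.239 to 4.68 RPKM in STAT5ca and 0 to 0.124 RPKM in Control. The nearest gene that rose, Esr1, lay 2907 kb away. In nc_inter_c10_17942, the STAT5ca libraries had 3, 2, 9, 1 and 8 reads and the Control libraries 0 each. Gm26674 itself did not pass the threshold. On chromosome 6, 5 features over 18.3 kb near E330021D16Rik had 2.28 to 4.58 RPKM in STAT5ca and 0.0738 to 0.524 RPKM in Control, with adjusted p from edgeR in the authors' deposited table between 2.6e-20 and 1.1e-09. On chromosome 2, 4 features near 4930444E06Rik had 0.380 to 2.12 RPKM in STAT5ca and 0 to 0.0173 RPKM in Control. Also on chromosome 2, 4 features 61.8 to 91.2 kb from B3galt1, a galactosyltransferase gene, had 0.958 to 9.95 RPKM in STAT5ca and 0.204 to 0.963 RPKM in Control. B3galt1 rose 2.69-fold in the authors' deposited table, with an adjusted p from edgeR of 1.8e-05.

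A pair of downward runs had no changed nearest gene. On chromosome 13, 3 features 6.32 to 9.53 kb from Ero1lb, an oxidase of protein folding in the endoplasmic reticulum, had 0.692 to 0.869 RPKM in STAT5ca and 3.66 to 4.24 RPKM in Control. On chromosome 5, 3 features near Gm43688 and Rchy1 had 0.0470 to 0.112 RPKM in STAT5ca and 0.832 to 1.30 RPKM in Control. Near Vegfa on chromosome 17, 3 features at 0 in Control had 0.116 to 0.337 RPKM in STAT5ca, and Vegfa did not pass the threshold. Steps between neighbouring features that did not overlap were as short as 10 bases, in the Mup1 run. Some features of a run were nested: nc_inter_c7_6004 lay inside nc_inter_c7_44067, and nc_inter_c15_26832 inside nc_inter_c15_12582. Nested features can share reads, and whether such features belong to 1 transcript was not tested.

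**Figure D5:**
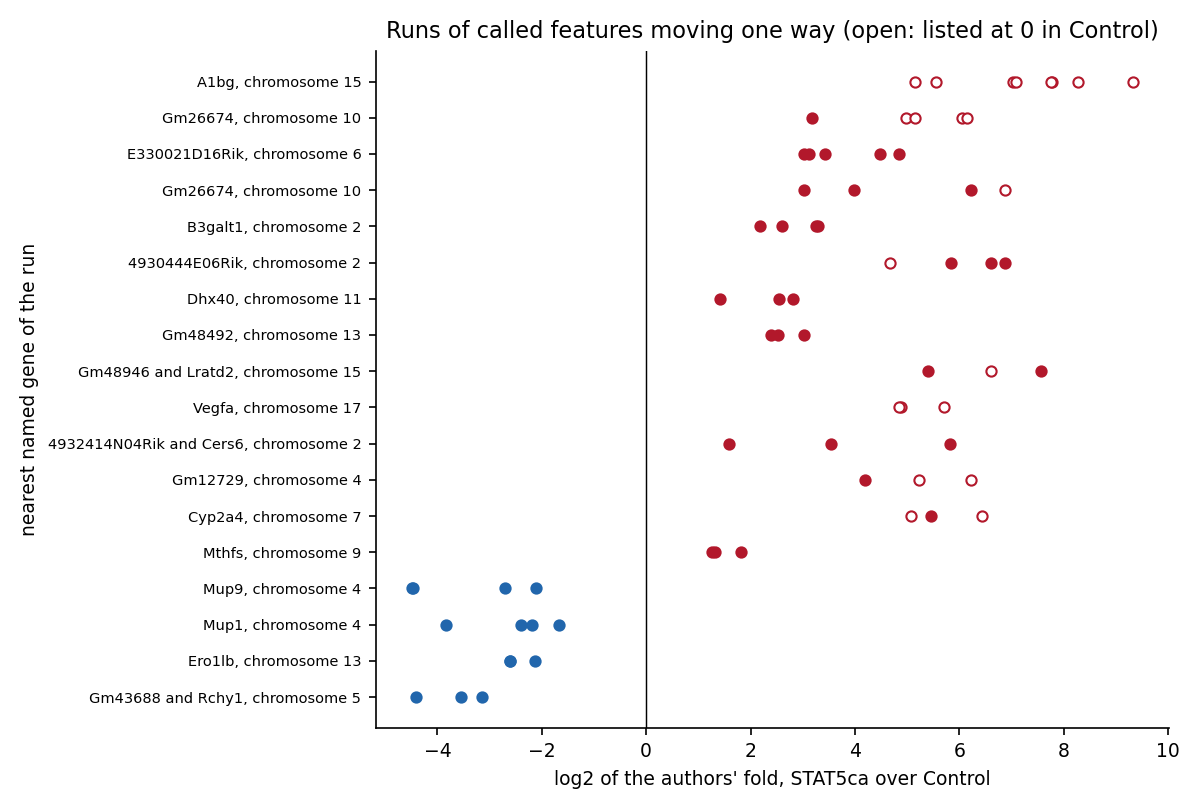
Log2 of the authors' fold, STAT5ca over Control, for each of the 68 features in the 18 runs that moved in 1 direction, by the nearest named gene of the run. Red features rose and blue ones fell; open circles were at 0 in Control, where the fitted fold depends on the authors' prior count and gives no bound.

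Changed features with a RefSeq promoter and a mean RPKM of at least 0.5 numbered 25, of which 11 rose and 14 fell. Gm46545, at chr16:24074243-24098742 (mm9), had 8.87 RPKM in STAT5ca and 21.5 RPKM in Control. The nearest gene that fell, Bcl6, lay 85.3 kb away. Bcl6 is a transcriptional repressor with male-biased expression in liver, and fell 4.42-fold in the authors' deposited table, with an adjusted p from edgeR of 2.8e-09. The promoter of Gm46545 printed above holds 2 motif matches. BC039966, with 1 match, had 1.27 RPKM in STAT5ca and 0 in Control.

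The promoters of Gm29684 and G630018N14Rik, printed above, hold no match. Gm29684, 37.7 kb from Cradd, had 1.58 RPKM in STAT5ca and 0.0621 RPKM in Control, and Cradd, an adaptor of cell death signalling, had 5.07 RPKM in STAT5ca and 2.15 RPKM in Control. G630018N14Rik, 19.2 kb from Gm11373, had 2.04 RPKM in STAT5ca and 0.0433 RPKM in Control, and Gm11373 had 0.910 RPKM in STAT5ca and 0.0187 RPKM in Control. Gm31718 had 2.31 RPKM in STAT5ca and 0.0776 RPKM in Control. Gm32063, the one of the 25 with the highest mean level, had 13.0 RPKM in STAT5ca and 23.4 RPKM in Control, with an adjusted p from edgeR of 0.000378 in the authors' deposited table. AW112010 had 7.42 RPKM in STAT5ca and 3.96 RPKM in Control. Of these, Gm29684, Gm31718 and G630018N14Rik were counted over another length than their interval.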

How the data were processed

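The authors deposited 1 table of all features with a group RPKM (reads scaled by feature length and library total) for STAT5ca and for Control, a signed fold score and an edgeR adjusted p-value, per the file headers. The fold is positive for STAT5ca over Control. The submitters' processing notes list STAR, featureCounts and edgeR with no version, and the mm9 build. The adjustment method, the authors' covariates and the use of strand in counting are not stated in the labels or headers. Both times after injection are pooled in each group value.

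Distances are the bases between the interval of a feature and the span of the nearest named gene on the same chromosome, with starts counted from 0. For printed coordinates 1 was added to starts. The test is the authors' adjusted p under 0.05 over all 75794 features, because the table has no counts per library; the planned count model could not be run. Genes were called strongly changed at 4-fold or more. A fold against a group at 0 uses a floor of 3 reads over the group, and with 1 to 3 reads a 95% exact Poisson interval of that count. Both cover counting error only and take the whole interval as the counted length, which could not be checked for every feature.

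Whole reads per library were recovered from low group values: up to 40 reads for STAT5ca and 60 for Control, with library totals found from the values. A single combination was found for 93.5% of 17326 low values in STAT5ca and 92.9% of 16658 in Control. With 1 base added to the length, at least 1 combination was found for 0.519% and 0.174%. The recovery was tested on simulated data.

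Named features were the 10 largest rises and the 10 largest falls at a mean RPKM of at least 0.5, the features of the 8 runs with most called features, the gene beside each run, and the 5 features of highest level. The features near Pim1, Cish, Socs2, Apcs, Mup20, Ugt2b1, Atxn1 and Pter, the annotated features and the runs by position were singled out after their values were seen. The features and gene lists were chosen with earlier results of these data known. Promoters came from RefSeq (GRCm38.p6) by symbol, 250 bases before to 50 after the start, with no coordinates converted. Python 3.11.15, pandas 2.3.3, numpy 2.4.6, scipy 1.17.1 and matplotlib 3.10.9 were used. Alternatives were other thresholds, distances, gene sets, run sizes and pseudocounts of 0.01, 0.1 and 1 on log2 ratios.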

Additional observations from a re-analysis of the deposited data

Results flagged for a closer look

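In 21 groups of libraries, each with at least 10 recovered reads of a changed feature, 3 had 1 library far from the others by Dixon's ratio (the gap to the nearest library over the whole range). Chance flags about 5% of groups of normally distributed values. These are small read counts in features picked by their call, so that rate need not hold here. In nc_inter_c7_45135 near Olfr596 the highest Control library, with 36 of 38 reads, gave a ratio of 0.966. In nc_inter_c7_45136 beside it the deepest Control library, with 26 of 29 reads, gave a ratio of 0.875. Both features were called lower. The deepest Control library stood apart in both, so these flags are not independent. In nc_inter_c10_18323 near Sult3a1 the highest STAT5ca library, with 12 of 22 reads, gave a ratio of 0.757. Without that library the STAT5ca mean was 0.175 reads per 1e6 counted, against 0.309 with all, and all 5 STAT5ca libraries were above the Control libraries, which had 0 reads.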

How the results depend on the processing

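The counts of changed features kept within 1.5 times of 317 higher and 226 lower with a minimum fold of 2 (310 and 207), when p was re-adjusted over the subset of the table averaging 0.1 RPKM or more (342 and 277), with only features of that level (268 and 202), and with the nearest gene taken from named genes of that level (289 and 215). At an adjusted p under 0.01 they were 242 and 129. Narrower choices lowered them by construction: 195 and 125 at 10 to 50 kb, 159 and 84 where the counted length was checked and equalled the interval, and 190 and 112 without overlap with another feature, the last 2 chosen after seeing the data. Features that moved with their nearest gene numbered 104, and 118 with genes of at least 0.1 RPKM, 72 at p under 0.01, 69 up to 25 kb and 35 beyond it; those that moved against it numbered 2, and 3, 1, 0 and 2 in the same order. Runs numbered 61, and 173 at 2-fold, 33 at 8-fold and 37 with at least 4 features; features called with the gene numbered 46, and 82 at 2-fold. The median log2 fold was 0 under each pseudocount, but 46.5% of the features were at 0 in both groups, which holds it near 0. None of the 252 pseudocount values of the 87 features named by the fixed rule reversed a call. A pseudocount added to both groups keeps the sign of the RPKM difference, so it could not cause a reversal. These values show only that the RPKM difference and the authors' fold had the same sign in the called features.

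No paired analysis was possible because the table gives 1 value per group. Leaving out single libraries could not be done in the authors' fit for the same reason. For the 89 changed features with 10 to 40 recovered reads it was done on mean reads per 1e6 counted, with no test and chosen after seeing the data. The difference between groups kept its sign in all 50 higher and all 39 lower features, and shrank by over 1.5 times without 1 library in 6 of the 50 and 17 of the 39. Where the groups did not overlap, in 44 of the 50 and 19 of the 39, the sign could not change. The features were also called from these same libraries, so the kept sign adds no support to the calls. Group values limit all statements on features under 0.1 RPKM, where a few reads decide the level, and no spread can be given where reads were not recovered.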
